A study of Mus musculus with 6 samples.

Results

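The 3′ UTRs of Plekhm3, Etnk1 and Cpd each carried a row of Argonaute (Ago) footprints in mouse macrophages. Members were all footprints that overlapped 1 of these genes on its own strand in the GENCODE vM1 annotation (mouse build mm9). They numbered 48 of 6270, with 16 on Plekhm3, 17 on Etnk1 and 15 on Cpd. The genes were chosen by their number of footprints in these same data, so these numbers are a description and were not tested. The median gene held 2 footprints, 15 of 2222 genes held at least 15, and the largest number on a gene was 26.

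Ago HITS-CLIP recovers the RNA that ultraviolet light has cross-linked to Ago proteins, by immunoprecipitation and sequencing. Bone-marrow-derived macrophages of C57BL/6 mice aged 6 to 12 weeks were grown with M-CSF, the cytokine that drives marrow cells to become macrophages. The 2 groups were wild-type mice (WT, 3 libraries) and Apobec1-/- littermates (KO, 3 libraries), which lack the cytidine deaminase APOBEC1 in all cells of the animal. Both groups came from 3 littermate pairs and had the same culture and antibody (2A8), and the deleted part of Apobec1 is not named in the labels.

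Ago proteins hold a short microRNA (miRNA) and use its bases 2 to 8, the seed, to find complementary sites, mostly in 3′ UTRs. A bound mRNA is then translated less or degraded sooner. A long 3′ UTR can hold sites for many miRNAs, and its Ago footprints show where along the transcript the protein sat. Plekhm3 encodes a protein with pleckstrin homology domains, a relative of Plekhm1 and Plekhm2, which link small GTPases to lysosomes. Etnk1 encodes ethanolamine kinase, the first step of the CDP-ethanolamine route to phosphatidylethanolamine. Cpd encodes carboxypeptidase D, a membrane enzyme of the trans-Golgi network that trims basic residues from the ends of proteins cut by furin-like proteases.

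Each value is the authors' Ago occupancy, a ratio of the footprint signal to the RNA-Seq expression of its transcript. The table gives 1 occupancy per genotype and the number of libraries, 0 to 3, that held the footprint. No value per library was given, so differences between KO and WT have no replicate check, no SD and no p-value, and the read depth is unknown. A 2-fold difference was used to mark footprints. Each of the 6270 footprints had to be held by at least 2 libraries of a genotype to enter the table. More entered through WT libraries (5949) than through KO libraries (2517). Of 6 macrophage marker genes 4 had footprints (Csf1r, Emr1, Itgam and Lyz2), and of 12 markers of lymphocytes, neutrophils, fibroblasts and dendritic cells none had. A gene without a footprint may still be expressed.

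The footprints are numbered from the stop codon, and the windows below show where a footprint held a site for a miRNA of a fixed list. Whether these cells express the listed miRNAs was not examined here. The search used 31 miRNAs in 30 seed families, on the transcript strand only, for the 7 bases that pair with the seed. A site was found in 12 of the 48 footprints. These were 3 of 16 on Plekhm3, 6 of 17 on Etnk1 and 3 of 15 on Cpd, against 21.7% of all footprints in the table. The miRNA seeds are in capitals, read from RefSeq's table (GRCm38.p6), and are shown because their sites lay within 5 nt of the centre of a footprint:
miR-125b-5p: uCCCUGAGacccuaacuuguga
miR-146a-5p: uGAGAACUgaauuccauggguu
let-7a-5p: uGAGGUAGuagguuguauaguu
miR-23a-3p: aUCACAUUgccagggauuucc
miR-101a-3p: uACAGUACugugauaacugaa
miR-15a-5p: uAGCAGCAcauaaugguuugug
miR-16-5p: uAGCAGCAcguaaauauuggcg
miR-29a-3p: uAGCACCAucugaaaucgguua

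The 30-nt target windows of these sites, from the mm9 genome on the gene's strand with the site in capitals, read as follows. The last 2 lines were added because their sites overlap, so that 1 stretch pairs with more than 1 family:
Plekhm3 footprint 1, miR-125b-5p, chr1:64841303-64841332: accccttcatacacactggctCTCAGGGcc
Plekhm3 footprint 16, miR-146a-5p, chr1:64835721-64835750: gcacctgttcctaatgtataaAGTTCTCtc
Etnk1 footprint 4, let-7a-5p, chr6:143153484-143153513: tgttagacctggcttcggtttCTACCTCcc
Etnk1 footprint 6, miR-23a-3p, chr6:143154254-143154283: tggtagtaagctcgttttgtaAATGTGAaa
Etnk1 footprint 12, miR-101a-3p, chr6:143155314-143155343: cattttatcctgcattccagaGTACTGTag
Cpd footprint 3, miR-15a-5p and miR-16-5p, chr11:76594862-76594891: cctggtaaaacccataggTGCTGCTGCTtt
Cpd footprint 9, miR-29a-3p, chr11:76593075-76593104: ggtgtagcagtgaactccgggTGGTGCTgg
Etnk1 footprint 10, miR-23a-3p and miR-181a-5p, chr6:143154978-143155007: acaaaaacttgaaattcAATGTGAATGTaa
Etnk1 footprint 17, miR-103-3p with miR-15a-5p and miR-16-5p, chr6:143156554-143156583: caaatgtgaattgtagtctaATGCTGCTtt

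The window of Cpd footprint 3 holds the miR-15/16 site TGCTGCT 2 times, in overlapping positions, and these miRNAs share a seed. In Etnk1 footprint 10 the miR-23 site AATGTGA runs into the miR-181 site TGAATGT. In Etnk1 footprint 17 the miR-103 site ATGCTGC and the miR-15/16 site share all but 1 of their bases. An A directly after the site, which pairs with nothing but is favoured by Ago, followed in 3 of the 12 windows, Etnk1 footprints 6, 10 and 12. The other 3 sites lay farther from the centre. They were a miR-17 site (GCACTTT) 33 nt from the centre of Plekhm3 footprint 15, a miR-21 site (ATAAGCT) 29 nt from that of Etnk1 footprint 8, and a miR-155 site (AGCATTA) 14 nt from that of Cpd footprint 12.

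Each of these families is rare in the table. The miR-15/16 site was in 1.99% of all footprints and the miR-23 site in 1.52%, the families with 2 member footprints each. The other sites that occurred on members were in 0.431% (miR-21) to 1.18% (miR-181) of all footprints. A match of letters is a description and not evidence of binding by that miRNA, and the miRNA reads of the study were not analysed here. The whole 3′ UTRs hold 22 sites of the 30 families searched in Plekhm3, 25 in Etnk1 and 20 in Cpd. Of these, 13.6%, 32.0% and 20.0% lay within footprints, which covered 25.0%, 25.1% and 28.4% of the 3′ UTR length. Neither Plekhm3 nor Cpd thus had a larger share of its sites in footprints than the share of sequence the footprints covered.

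All 48 footprints lay in the 3′ UTR of the coding transcript. The 3′ UTR of Plekhm3 is 5916 nt long (chr1:64835695-64841610, minus strand, exon 8), that of Etnk1 5086 nt (chr6:143151977-143157062, plus strand, exon 8) and that of Cpd 3760 nt (chr11:76591926-76595685, minus strand, exon 21). This gave 2.70 footprints per kb on Plekhm3, 3.34 on Etnk1 and 3.99 on Cpd. No footprint overlapped another, no other annotated gene on either strand lay across these stretches, and no further footprint was found within 5000 nt of the genes. On Plekhm3, 3 footprints also overlapped exons of its other annotated transcripts.

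The footprints were spread along the 3′ UTR and did not form a single cluster. On Plekhm3 their centres ran from 302 to 5885 nt past the stop codon, and the last one crossed the annotated end of the coding transcript by 6 nt. The annotated gene runs on past that end, to chr1:64832557. On Cpd they ran from 35 nt, next to the stop codon, to 3678 nt, 82 nt before the annotated end. On Etnk1 they ran from 642 to 4621 nt, and the last 465 nt held no footprint centre. The median gap between neighbours was 217 nt on Plekhm3 (50 to 799), 143.5 nt on Etnk1 (1 to 605) and 132.5 nt on Cpd (21 to 467). The closest pair, Etnk1 footprints 4 and 5, was 1 nt apart. Most footprints were as narrow as the rest of the table (medians of 72.5, 71 and 70 nt against 72 nt), but 4 on Plekhm3 and 1 on Etnk1 reached 100 nt or more. The share of all footprints at this length was not counted. Within the length range of Etnk1, 63 to 108 nt, lay 5897 of the 6270 footprints.

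**Figure D1:**
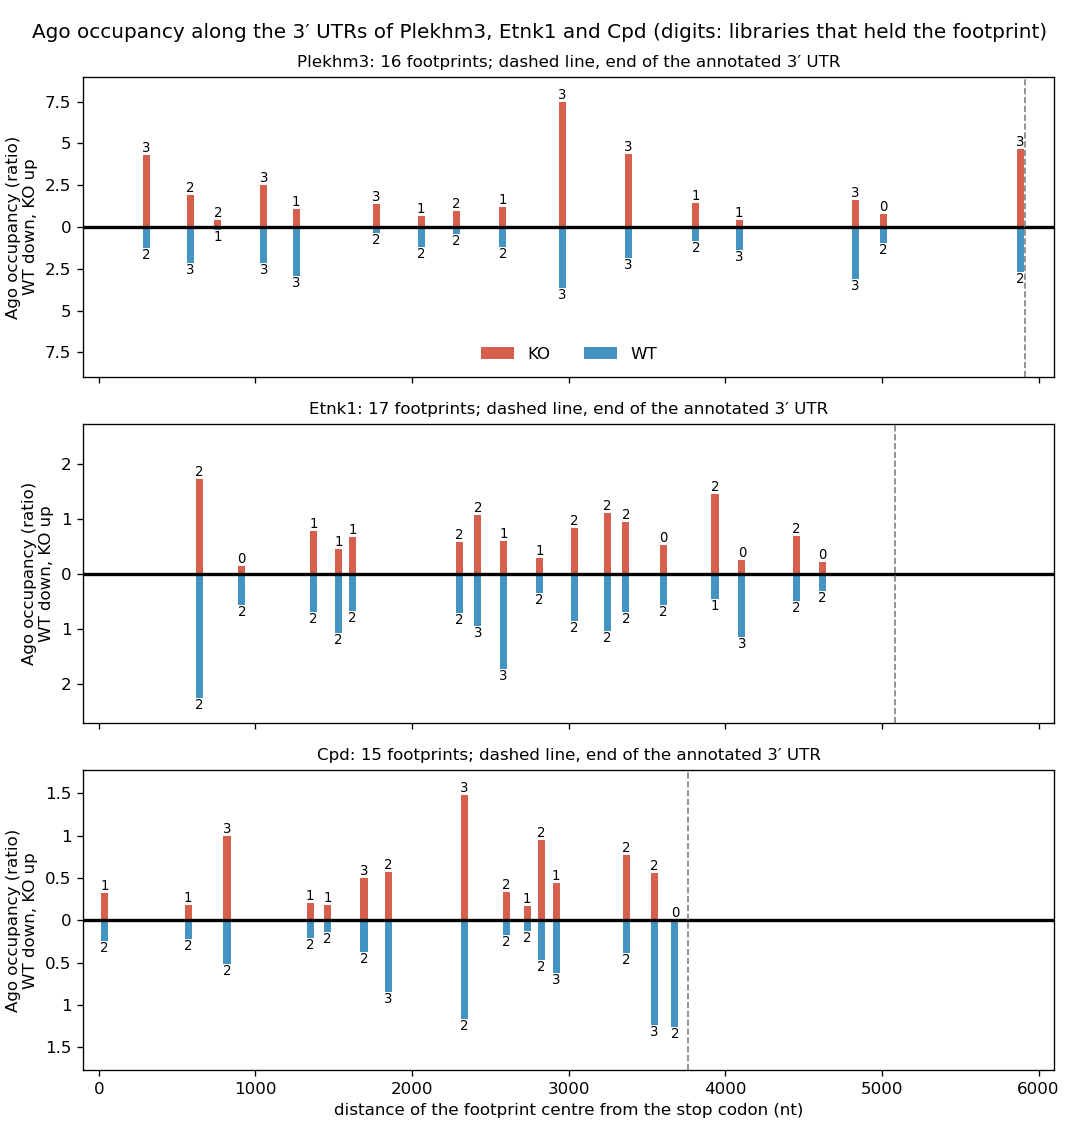
Ago occupancy (a ratio, upward for KO and downward for WT) of each footprint against the distance of its centre from the stop codon in nt, for the 3 genes, with the number of libraries that held the footprint at each bar. The tallest bars are Plekhm3 footprint 10 in both genotypes (7.46 and 3.62), and the bar of Cpd footprint 15 is missing in KO, where it is listed at 0.

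Counted together, 8 of the 48 footprints were at least 2-fold higher in KO and 8 at least 2-fold lower. Among all footprints 18.9% were higher and 24.2% lower by this rule. On Plekhm3 6 were higher and 2 lower, and on Etnk1 1 and 4. On Cpd 1 was higher and 2 lower, of which 1 is listed at 0 in KO, as are 4.63% of all footprints. With so few footprints a gene and no replicate values, these splits are not shown to differ from the table. Over the 48 the median log2 ratio was 0.03, and over all footprints -0.04. By any amount, 24 of the 48 were higher in KO, against 48.7% of all footprints (3054 higher and 3216 lower).

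**Figure D2:**
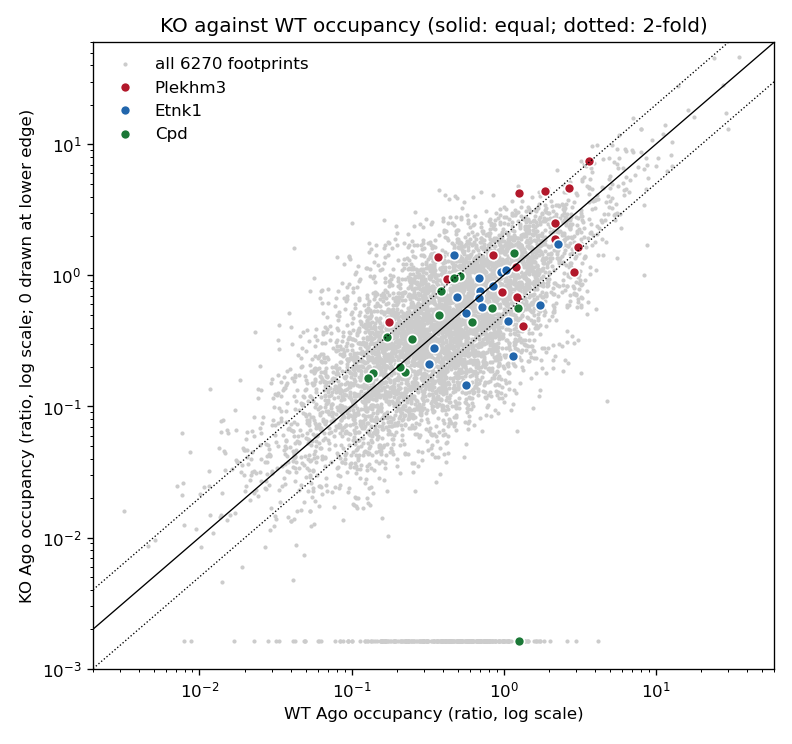
KO against WT Ago occupancy (ratios, log scales) of all 6270 footprints in grey and of the 3 genes in colour, with a solid line of equality and dotted lines at 2-fold; values of 0 are drawn at the lower edge. The Plekhm3 points lie toward the upper right, and 1 Cpd point lies at the lower edge.

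Plekhm3 had the strongest footprints of the 3 genes. Its occupancy ran from 0.415 to 7.46 in KO (median 1.41) and from 0.176 to 3.62 in WT (median 1.31), against medians of 0.377 and 0.406 in the whole table. Of its 16 footprints, 15 were at or above the table median of mean occupancy (0.425). The footprints added up to 35.1 in KO and 26.4 in WT (log2 ratio 0.41), with 9 higher and 7 lower in KO, near the 48.7% higher among all footprints.

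The strongest Plekhm3 site was footprint 10 in the middle of the 3′ UTR (chr1:64838615-64838685), 2961 nt past the stop codon. It had 7.46 in KO and 3.62 in WT, and all 6 libraries held it. Its mean occupancy stood at percentile 99.2 of the table, and it held no site of the families searched. Footprint 11 (chr1:64838199-64838264) followed downstream, with 4.38 in KO and 1.86 in WT in all 6 libraries. The last footprint, number 16 (chr1:64835689-64835763), spans the annotated end of the coding transcript, which is not the end of the annotated gene. It holds the miR-146 site printed above, 0 nt from its centre. It had 4.66 in KO (3 libraries) and 2.70 in WT (2 libraries). It also held the poly(A) signal AATAAA, a hexamer found in 5 of the 48 footprints, also far from a 3′ UTR end, and in 7.00% of all footprints. miR-146 is known as a brake on Toll-like receptor signalling in macrophages.

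Near the stop codon, footprint 1 (chr1:64841278-64841340) had 4.28 in KO (3 libraries) and 1.27 in WT (2 libraries), a 3.38-fold higher value in KO. The miR-125 site printed above lies 1 nt from its centre. Its neighbours differed less. Footprint 2 had 1.89 in KO (2 libraries) and 2.17 in WT (3 libraries), and footprint 4 had 2.51 and 2.16 in all 6 libraries. Between these, the weak footprint 3 had 0.441 in KO (2 libraries) and 0.176 in WT (1 library). It entered the table through KO libraries alone.

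The highest KO to WT ratio on Plekhm3 was that of footprint 6 (chr1:64839789-64839892), with 1.38 in KO (3 libraries) and 0.370 in WT (2 libraries), 3.73-fold. Footprint 8, the longest at 197 nt, had 0.944 and 0.423 in 2 libraries of each genotype. The lowest ratio was that of footprint 13 (chr1:64837485-64837558), with 0.415 in KO (1 library) and 1.35 in WT (3 libraries), 3.25-fold lower in KO. Footprint 5 (chr1:64840254-64840449, 196 nt) was also lower in KO, with 1.07 (1 library) and 2.91 (3 libraries). Per the design text, occupancy is divided by the expression of the transcript. The footprints of a gene may thus share that divisor, although 3 on Plekhm3 also overlapped exons of other transcripts. The part of the divisor in the ratios was not tested.

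The other Plekhm3 footprints stayed within 2-fold. Footprint 14 had 1.64 in KO and 3.10 in WT and was held by all 6 libraries. Footprint 7 had 0.683 and 1.22, footprint 9 had 1.17 and 1.21, and footprint 12 had 1.43 and 0.854, each in 1 KO and 2 WT libraries. Footprint 15, with the miR-17 site at its edge, had 0.753 in KO, although no KO library held it, and 0.974 in WT (2 libraries). The sources used here do not say how such values arose. Equal values also recur, since 13 of the 48 KO values and 6 of the 48 WT values were identical to that of another footprint in the table (31.7% and 18.6% of all footprints). The KO value of Etnk1 footprint 2 recurs at 6 other footprints, and the WT value of Cpd footprint 13 at 4, so such values and their folds may not be separate measurements.

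On Etnk1 no footprint was as strong as the leading ones of Plekhm3. Occupancy ran from 0.145 to 1.73 in KO (median 0.674) and from 0.321 to 2.27 in WT (median 0.699). The sum was 12.2 in KO and 14.6 in WT (log2 ratio -0.26), with 6 footprints higher and 11 lower in KO (35.3% higher, against 48.7% in the table). Of the 11, 8 were held by fewer than 2 KO libraries, and among the 7 footprints held by at least 2 libraries of both genotypes 4 were higher and 3 lower. The 3 strongest footprints held 34.9% of the KO sum and 35.2% of the WT sum. On Plekhm3 they held 47.0% and 36.5%, and on Cpd 44.8% and 45.8%. The single strongest held 14.1% and 15.5% on Etnk1, 21.3% and 13.7% on Plekhm3, and 19.3% and 15.8% on Cpd.

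The strongest Etnk1 footprint in both genotypes was the first, 642 nt past the stop codon (chr6:143152579-143152657), with 1.73 in KO and 2.27 in WT in 2 libraries each. It was AU-rich (24.1% G+C) and held the AU-rich element core ATTTA 2 times, a pentamer found in 11.9% of all footprints. It held no site of the families searched. Footprint 14 (chr6:143155875-143155945) was the second strongest in KO, with 1.44 (2 libraries) against 0.470 in WT (1 library). At 3.07-fold it was the only Etnk1 footprint at least 2-fold higher in KO, and it entered through KO libraries alone.

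Of the Etnk1 footprints, 4 were at least 2-fold lower in KO. Footprint 15 (chr6:143156048-143156117) was lowest, with 0.244 in KO, where no library held it, and 1.16 in WT, where 3 did, a 4.73-fold difference. Footprint 2 (chr6:143152854-143152924) had 0.145 in KO (0 libraries) and 0.564 in WT (2 libraries). Footprint 8 (chr6:143154524-143154598), with the miR-21 site at its edge, had 0.596 (1 library) and 1.73 (3 libraries). It also held the Pumilio motif TGTANATA 2 times, a motif found in 3.81% of all footprints. Footprint 4 (chr6:143153452-143153559), with the let-7 site printed above 2.5 nt from its centre, had 0.445 (1 library) and 1.07 (2 libraries). None of these 4 was held by more than 1 KO library, so all 4 entered the table through WT libraries alone. Over all footprints held by fewer than 2 KO libraries, the median log2 ratio was -0.55 and 37.5% were at least 2-fold lower in KO.

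The Etnk1 footprints with miR-23 sites lay close to equality. Footprint 6 had 0.578 in KO and 0.725 in WT, and footprint 10, where the miR-23 and miR-181 sites overlap, had 0.828 and 0.854, each in 2 libraries of both genotypes. Footprint 12, with the miR-101 site, had 0.947 and 0.693 in 2 libraries of each. Footprint 17, the last, with the overlapping miR-103 and miR-15/16 sites, had the lowest WT value of the gene, 0.321 (2 libraries), and 0.212 in KO, where no library held it. Of the 6 Etnk1 footprints with a site, only footprint 12 was higher in KO, and footprints 4 and 8, given above, were at least 2-fold lower. Of all 17 Etnk1 footprints 6 were higher in KO, against 48.7% in the table.

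The remaining Etnk1 footprints lay within 2-fold as well. Footprints 7 and 11, both rich in G+C (55.2% and 52.2%), had 1.06 and 1.10 in KO and 0.956 and 1.04 in WT. The close pair of footprints 4 and 5 differed, since footprint 5 had 0.674 and 0.688 and was thus nearly equal in the genotypes. Footprint 3 had 0.767 and 0.699, and footprint 9, with 3 copies of ATTTA, 0.281 and 0.348. Footprints 3, 5 and 9 were each held by 1 KO and 2 WT libraries. Footprint 13, the richest in G+C on Etnk1 (56.0%), had 0.513 in KO, although no KO library held it, and 0.564 in WT (2 libraries). Footprint 16 had 0.684 and 0.492 in 2 libraries of each. No Etnk1 footprint was held by all 3 KO libraries, against 7 of 16 on Plekhm3, 3 of 15 on Cpd and 12.9% of all footprints.

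Cpd had the lowest occupancy of the 3 genes. It ran from 0 to 1.47 in KO (median 0.439) and from 0.129 to 1.26 in WT (median 0.390), and 9 of its 15 footprints were at or above the table median. The sum was 7.63 in KO and 8.01 in WT (log2 ratio -0.07). By single footprints, 9 were higher and 6 lower in KO (60% higher, against 48.7% in the table), with a median log2 ratio of 0.34.

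Footprint 15, the last on Cpd (chr11:76591971-76592044), had the largest difference between its values. It had 1.26 in WT (2 libraries), the highest WT value of the gene, and was listed at 0 in KO, where no library held it. Without it the log2 ratio of the sums was 0.18. It lay 82 nt before the annotated end, had 24.3% G+C and held ATTTA. Its neighbour, footprint 14 (chr11:76592110-76592172), had 0.563 in KO (2 libraries) and 1.23 in WT (3 libraries), 2.19-fold lower in KO. The next one upstream, footprint 13 (22.9% G+C), was higher in KO, with 0.765 and 0.390 in 2 libraries of each. Both of its values recur at other footprints of the table.

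The strongest Cpd footprint in KO was number 8 (chr11:76593320-76593382), with 1.47 (3 libraries) against 1.17 in WT (2 libraries). It held no site of the families searched. Footprint 3 (chr11:76594836-76594899), where the repeated miR-15/16 site lies 1 nt from the centre, had 0.991 in KO (3 libraries) and 0.519 in WT (2 libraries), 1.91-fold higher in KO. Footprint 9, with the miR-29 site, had 0.337 and 0.171 in 2 libraries of each, 1.97-fold. Footprint 11 (chr11:76592824-76592898) had 0.950 and 0.473 in 2 libraries of each. At 2.01-fold it alone on Cpd passed 2-fold higher, and with a pseudocount of 0.01 it did not (log2 ratio 0.99), while footprints 3, 9 and 13 fell just short at 1.91 to 1.97.

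Of the others, footprint 12, with the miR-155 site, had 0.439 in KO (1 library) and 0.619 in WT (3 libraries). miR-155 rises in macrophages that sense bacterial products. Footprint 7 had 0.565 (2 libraries) and 0.843 (3 libraries), and footprint 6 had 0.496 (3 libraries) and 0.374 (2 libraries). Footprint 1, 35 nt past the stop codon, had 0.325 and 0.250 in 1 KO and 2 WT libraries. Footprints 2, 4, 5 and 10 were weak, at 0.164 to 0.198 in KO and 0.129 to 0.225 in WT, each in 1 KO and 2 WT libraries.

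Library support moved with these ratios. All 8 footprints at least 2-fold higher in KO were held by at least 2 KO libraries, and 7 of the 8 lower ones by fewer than 2, the exception being Cpd footprint 14. These 7 thus entered the table through WT libraries alone. Among all footprints 809 of 1184 higher footprints were held by at least 2 KO libraries and 1408 of 1518 lower ones by fewer than 2. Occupancy and library number come from the same reads, so they are not independent. At least 2 KO libraries held 10 of 16 footprints on Plekhm3 (62.5%), 8 of 17 on Etnk1 (47.1%) and 8 of 15 on Cpd (53.3%), against 40.1% of all footprints. All 6 libraries held 4 footprints of Plekhm3 (numbers 4, 10, 11 and 14) and none of Etnk1 or Cpd, against 5.89% of the table.

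**Figure D3:**
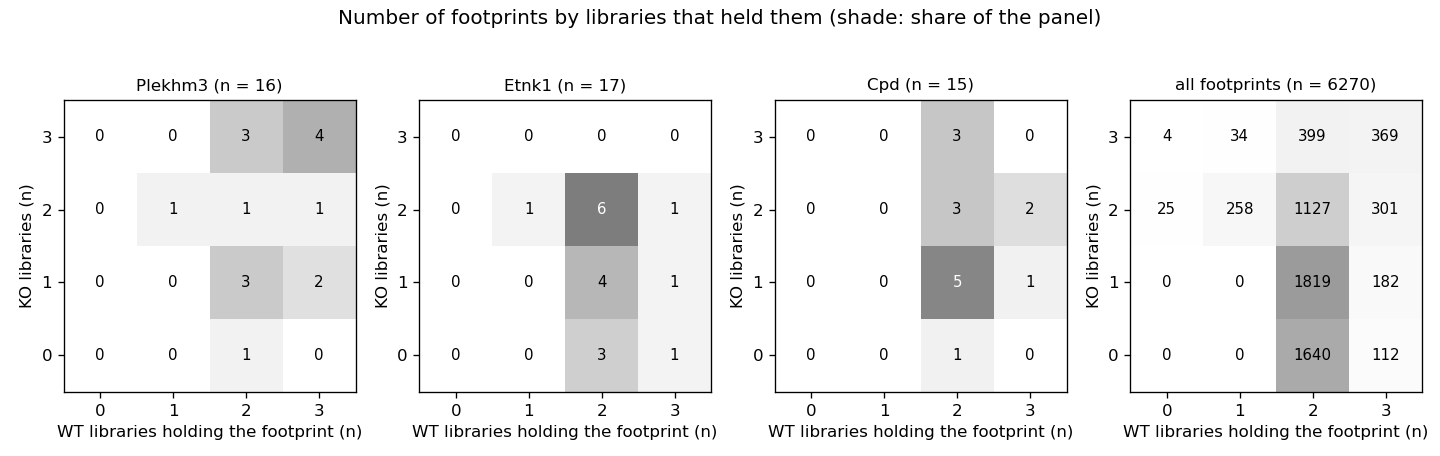
Number of footprints by the count of WT libraries (horizontal) and KO libraries (vertical) that held them, for each gene and for all footprints, with shade for the share of the panel. Etnk1 has no footprint in the row of 3 KO libraries, and Plekhm3 has 4 in the cell of all 6 libraries.

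Sums over the footprints held by at least 2 libraries of both genotypes were 29.1 in KO and 17.7 in WT for the 9 on Plekhm3 (log2 ratio 0.72). For the 7 on Etnk1 they were 6.93 and 7.03 (-0.02), and for the 8 on Cpd 6.14 and 5.18 (0.25). This choice leaves out footprints found in few KO libraries. Over all 2196 footprints of the table chosen in this way, the log2 ratio of the sums was 0.27. By the median of single log2 ratios, the chosen footprints gave 1.04 on Plekhm3, 0.08 on Etnk1 and 0.67 on Cpd, against 0.42 over all 2196.

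Base composition differed among the genes too. Median G+C content was 50.7% on Plekhm3, 38.9% on Etnk1 and 44.0% on Cpd, against 42.9% in the table. Among footprints outside the 3 genes within 2 percentage points of these medians, the median log2 ratio was 0.30 for the G+C content of Plekhm3, -0.26 for that of Etnk1 and 0.07 for that of Cpd. The genes' own medians were 0.48, -0.14 and 0.34. The order of Plekhm3 above Etnk1 was thus also seen in other footprints of like composition, and the part of G+C content in the genes' ratios was not tested. Within a gene, G+C content and log2 ratio had a Spearman correlation of 0.25 on Plekhm3 (n = 16), 0.44 on Etnk1 (n = 17) and 0.05 on Cpd (n = 15). Points of a gene share a transcript and libraries.

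**Figure D4:**
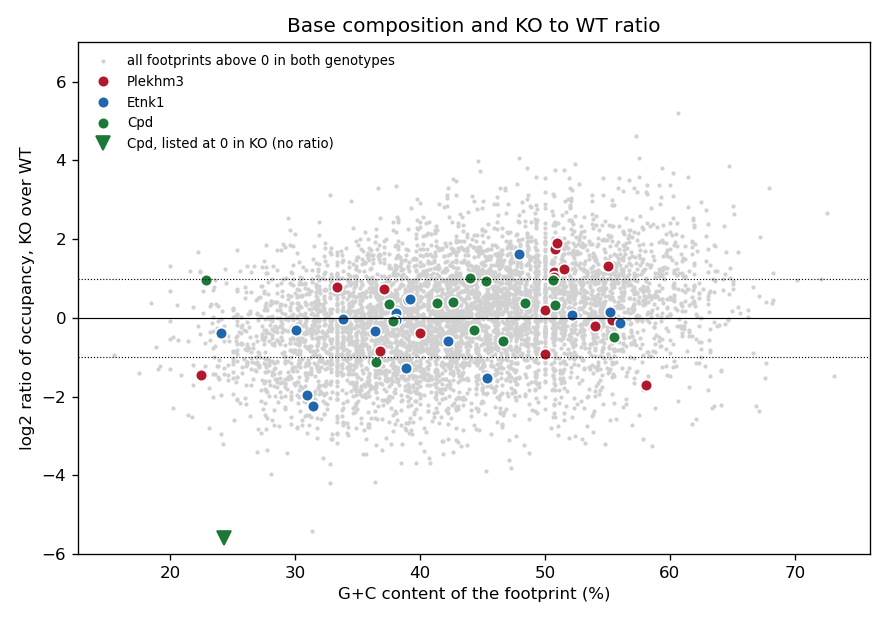
Log2 ratio of KO over WT occupancy against the G+C content (%) of the footprint, for all footprints above 0 in both genotypes in grey and the 3 genes in colour, with dotted lines at 2-fold and a triangle for the Cpd footprint listed at 0 in KO. Most Plekhm3 points lie near or above 50% G+C, and the lowest Etnk1 ratios lie near 31%.

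With all of its footprints counted, the rank within a gene was only partly shared by the genotypes. The Spearman correlation of KO and WT occupancy was 0.58 on Plekhm3, 0.31 on Etnk1 and 0.47 on Cpd. Over all footprints, which also differ in transcript, it was 0.61. Among footprints held by at least 2 libraries of both genotypes it was 0.58 on Plekhm3 (n = 9), 0.82 on Etnk1 (n = 7) and 0.50 on Cpd (n = 8). Over all such footprints of the table it was 0.83. Without replicate values, noise and genotype cannot be told apart in these correlations. The strongest footprint was the same in both genotypes on Plekhm3 (number 10) and Etnk1 (number 1) and differed on Cpd (number 8 in KO, number 15 in WT).

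Along the 3′ UTR, the log2 ratio of summed occupancy was 0.27 over the 9 Plekhm3 footprints up to 50% of the length and 0.52 over the 7 beyond. On Etnk1 it was -0.37 over the first 7 and -0.16 over the other 10. On Cpd it was 0.20 over the first 7 and -0.22 over the other 8, where footprints 14 and 15 lie. Without footprint 15, listed at 0 in KO, the last 7 on Cpd gave 0.16, and their sign no longer differed from that of the first 7.

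Among the 98 genes with at least 10 footprints, the log2 ratio of summed occupancy ran from -0.93 to 1.13 with a median of 0.15, and 66 were higher in KO. Of these 98, 1.02% were at least 2-fold higher and 0% at least 2-fold lower. Plekhm3 ranked 22 from the top, Cpd 70 and Etnk1 82, so all 3 lay inside this range. By distance over log2 summed KO and log2 summed WT occupancy (2 values a gene), the genes most like Plekhm3 were Tet3 (distance 0.34; 27.7 in KO and 27.3 in WT) and Ccnd1 (0.45; 30.8 and 19.9). Nearest to Etnk1 were Fnbp1l (0.08; 12.8 and 14.3) and Nsd1 (0.14; 13.1 and 13.7). Nearest to Cpd were Wdfy3 (0.02; 7.75 and 7.98) and Xiap (0.04; 7.42 and 8.02).

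**Figure D5:**
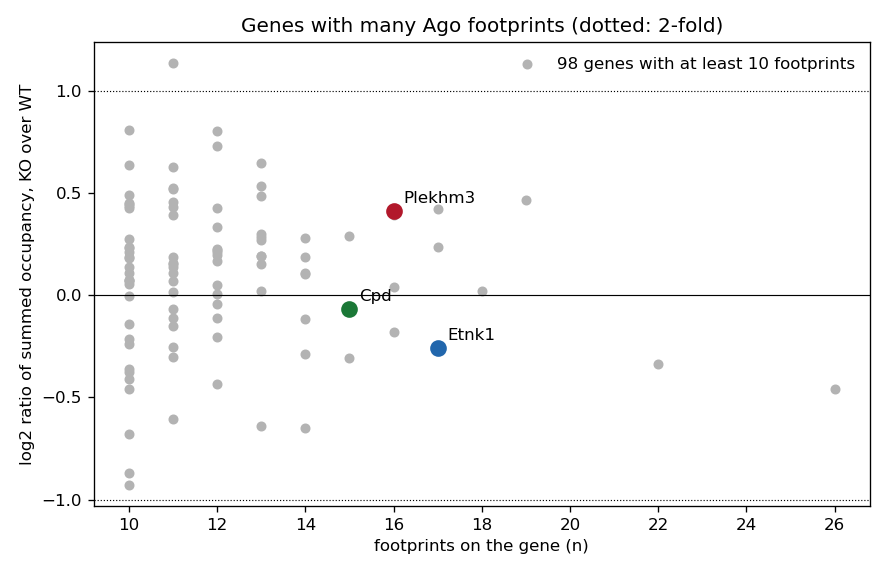
Log2 ratio of summed KO over WT occupancy against the number of footprints, for the 98 genes with at least 10 footprints, with the 3 genes named and dotted lines at 2-fold. Plekhm3 (0.41) lies above 0, Cpd (-0.07) close to it and Etnk1 (-0.26) below.

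The other listed genes with footprints numbered 2 for the pathway of Etnk1 and 1 for that of Cpd, and none of these reached 2-fold. Of all genes with a footprint, 11.7% were at least 2-fold higher and 17.9% lower in KO by sum. Of 15 symbols for enzymes of phosphatidylethanolamine and phosphatidylcholine synthesis, 14 were in the annotation and 3 were measured. Beside Etnk1 these were Pcyt1a of the choline branch (4 footprints, 1.29 in KO and 1.38 in WT), and Pisd, the mitochondrial decarboxylase that makes phosphatidylethanolamine from phosphatidylserine (2 footprints, 0.411 and 0.480). Of 16 symbols for carboxypeptidases of the Cpd family and proprotein convertases, 2 were measured, Cpd and Furin, the protease that cuts before basic residues are trimmed (5 footprints, 2.34 and 2.38).

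The list around Plekhm3 held 20 symbols for its relatives and for late endosome and lysosome tethering, of which 18 were in the annotation and 10 were measured. Of the 9 beside Plekhm3, 0 were at least 2-fold higher in KO and 2 at least 2-fold lower, with a median log2 ratio of 0.00 against -0.04 over all genes. The lower ones were Vps39, a subunit of the HOPS tethering complex (0.650 in KO and 2.41 in WT, 2 footprints), and Lamp1, a lysosomal membrane protein with very low occupancy (0.0183 and 0.0465, 4 footprints of which 2 are listed at 0 in KO). The relatives Plekhm1 (0.258 and 0.209) and Plekhm2 (0.433 and 0.289) carried 2 and 1 footprints, where the median gene held 2. Plekhm3 was chosen for its number of footprints, so the relatives' lower numbers are no result. The GTPases Arl8a (1.19 and 0.876) and Arl8b (1.25 and 1.25) and the lysosomal Lamp2 (4.02 and 5.26, 9 footprints) stayed within 2-fold, as did Vps33a (2.45 and 2.71) and Vps41 (0.207 and 0.147).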

How the data were processed

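The authors separated reads by length, aligned them to mm9, joined overlapping mRNA reads into clusters and took a footprint around each peak, per the labels' design text. They deposited occupancy as a ratio of footprint signal to RNA-Seq transcript expression, and the number of libraries that held each footprint. The tools were Bowtie 0.12.8 and bedtools, per the submitters' processing notes. The way libraries were combined and scaled is not stated there.

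All footprints were located on NCBIM37 (the same assembly as mm9) with GENCODE vM1, the strand taken from the identifier and coordinates counted from 1. Log2 ratios used a pseudocount of 0.00161 (50% of the smallest value above 0), which understates differences of low values. Gene values are sums. Sequences were read with pysam 0.24.0. miR-140-5p and miR-378a-3p were listed but had no matching sequence entry. The code was tested on simulated data.

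With 1 value per genotype no test was run. Named footprints were the strongest, the highest and lowest ratios, those in all 6 libraries and those with a seed site; the others were named for completeness after their values were seen. The genes, lists and rules were chosen with earlier results of these data known.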

Additional observations from a re-analysis of the deposited data

How the results depend on the processing

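No paired analysis was possible because the table gives 1 combined value per genotype, and for the same reason no library could be left out. The log2 ratios of the gene sums stayed below 2-fold except for Plekhm3 by its strongest footprint (1.04). In these settings Etnk1 stayed below 0 (-0.39 to -0.02), and Plekhm3 above 0 (0.28 without its strongest footprint). Both signs depended on KO library support, which comes from the same reads. Footprints held by at least 2 KO libraries gave 0.73 on Plekhm3, 0.16 on Etnk1 and 0.25 on Cpd. Those held by fewer gave -0.63, -0.88 and -0.93. Over the whole table these splits gave 0.35 and -0.56. Cpd turned from -0.07 to 0.18 with footprints above 0 in both genotypes, to 0.25 with at least 2 libraries of both, to 0.34 by the median of ratios, to 0.33 by its strongest footprint and to 0.04 with occupancy divided by each genotype's median. That scaling shifts the median log2 ratio of all footprints by 0.11 toward KO. Applied to the 2-fold counts after seeing the data, it gave 6 footprints on Cpd (4 higher and 2 lower) in place of 3. With a pseudocount of 1, which draws every ratio toward equality by construction (1.66% higher and 2.03% lower by 2-fold among all footprints), the 2-fold counts fell from 8 to 1 on Plekhm3, from 5 to 0 on Etnk1 and from 3 to 1 on Cpd. At 3-fold they were 3, 3 and 1 (8.79% higher and 14.1% lower among all footprints), and at 1.5-fold Cpd had 6 (30.3% and 34.0%). With a pseudocount of 0.01, Cpd footprint 11 (log2 ratio 0.99) fell short of 2-fold, which left Cpd with 0 higher and 2 lower. Seed sites rest on the match used. With 6 nt, found in 53.7% of all footprints, 12, 10 and 7 footprints of Plekhm3, Etnk1 and Cpd held a site. Adding 6-nt matches followed by A (32.5% of all footprints) gave 6 on Plekhm3, 8 on Etnk1 and 5 on Cpd. The numbers of footprints did not change under the exon rule or when abutting footprints were joined. Of the single footprints, 34 of 48 moved by less than 1.5-fold with a pseudocount of 1 and 47 with one of 0.01.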
